A study of Mus musculus with 2 samples.

Results

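The genes described here are 10 genes of the insulin and insulin-like growth factor (IGF) system in the mouse heart, out of 55536 genes in the deposited gene tables. They are the ligand gene Igf1, the receptor genes Igf1r and Insr, the receptor substrate gene Irs1, and the binding protein genes Igfbp2, Igfbp3, Igfbp4, Igfbp5, Igfbp6 and Igfbp7. They were chosen by symbol, with earlier results of these data known, and all 10 symbols were found, each with 1 gene identifier. Total RNA was sequenced from heart tissue of 2 B6CASTF1/J males, an F1 hybrid mouse strain, at 25 days of age, with 300 ng of RNA as input to each library. They are numbered as biological replicates 1 and 2, from males 3 and 4 of the collection, yet a single donor identifier covers both, so part of the spread between them may be technical. Both belong to 1 group with no labelled treatment, so no groups were compared.

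IGF1 is a secreted growth factor made in liver and locally in many tissues. It acts on a receptor tyrosine kinase encoded by Igf1r, a close relative of the insulin receptor encoded by Insr, and both receptors phosphorylate substrate proteins such as IRS1 to switch on PI3-kinase and AKT. Binding proteins of the IGFBP family hold IGFs in blood and tissue, and can prolong or block their action. In heart muscle this pathway is known for its role in growth and in insulin-stimulated uptake of glucose.

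The receptor and the ligand are each made in forms that differ by a small exon, and the sequences are shown because the transcript results turn on them. Form B of the insulin receptor holds a short exon that form A lacks, and form A is known to bind IGF2 with high affinity. That exon lies at chr8:3181702-3181737 (mm10, minus strand), is 36 bases long and keeps the reading frame. In the GENCODE M21 transcripts below, read 5′ to 3′ with 20 bases on either side, capitals mark the alternative exon.
Insr-203, with the exon: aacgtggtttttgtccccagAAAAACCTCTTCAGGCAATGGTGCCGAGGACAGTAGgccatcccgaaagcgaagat
Insr-201, without the exon: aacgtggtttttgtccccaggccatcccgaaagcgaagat

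In Igf1 an exon of 52 bases at chr10:87915298-87915349 (mm10, plus strand) lies before the last exon. It is known to separate the Eb precursor, which holds it, from the Ea precursor, and both give the same mature IGF1. Its length is not a multiple of 3, so the last exon is read in another frame after it. The lines run to the stop codon, and capitals mark the exon.
Igf1-203, with the exon: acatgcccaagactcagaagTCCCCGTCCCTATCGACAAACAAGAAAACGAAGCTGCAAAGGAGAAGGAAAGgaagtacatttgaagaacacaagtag
Igf1-202, without the exon: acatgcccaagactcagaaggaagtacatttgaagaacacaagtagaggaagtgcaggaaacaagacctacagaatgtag

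Igf1 transcripts also hold 1 of 2 leader exons joined to the first shared coding exon, which give different starts to the signal peptide. In some, such as Igf1-205, a noncoding exon comes before the leader exon. Capitals mark the coding part of the leader exon from its start codon, and the lower-case letters are the first 20 bases of the exon that all coding transcripts share.
Igf1-202, leader 1: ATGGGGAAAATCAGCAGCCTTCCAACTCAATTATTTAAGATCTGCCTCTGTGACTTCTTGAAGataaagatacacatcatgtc
Igf1-205, leader 2: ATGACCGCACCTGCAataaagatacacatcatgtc

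**Figure D1:**
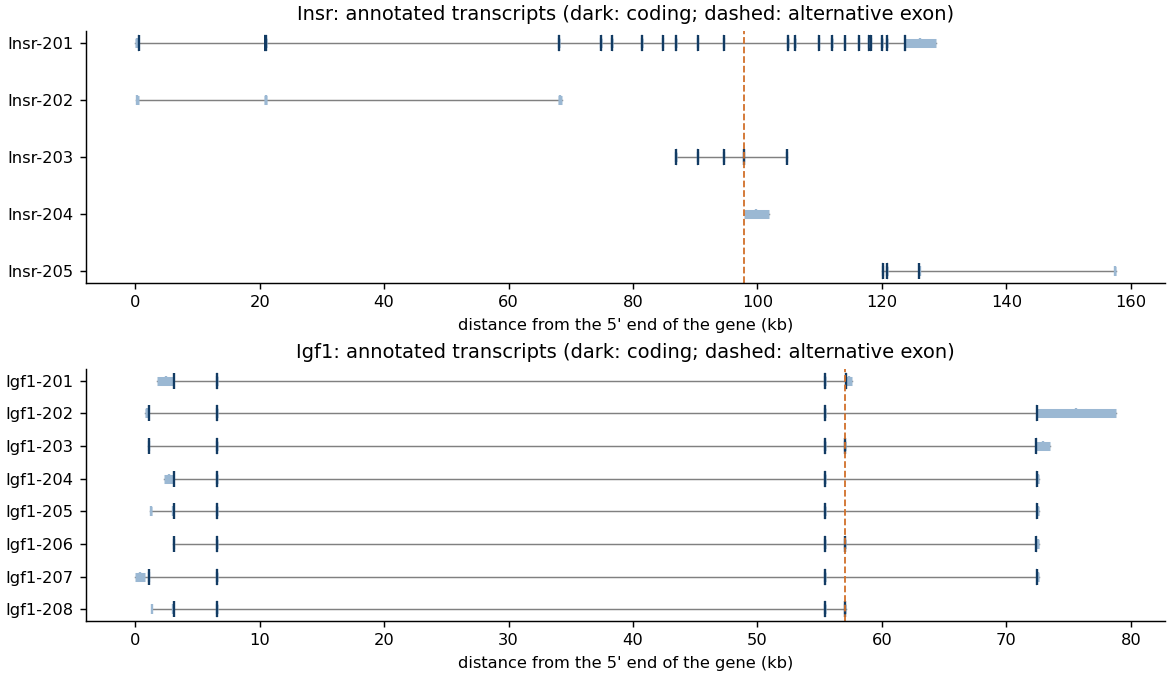
Annotated transcripts of Insr and Igf1 in GENCODE M21, plotted by distance from the 5′ end of the gene in kb, with coding exons dark, other exons light and a dashed line at the alternative exon; exons narrower than the line are drawn as a line. Insr-201 alone spans the receptor's coding sequence and skips the exon of 36 bases, which only the short Insr-203 holds as an exon, while Igf1-203, Igf1-206 and Igf1-208 hold the exon of 52 bases.

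Libraries held 38253798 estimated gene counts in replicate 1 and 40655078 in replicate 2. Heart muscle markers were high (Myh6 at 8807 and 8307 TPM in replicates 1 and 2), while none of 4 liver markers reached a TPM of 1 in both hearts (Alb and Serpina1a at 0 counts in both, Apoa2 at 3 and 13, Ttr at 9 and 6). Of 4 skeletal muscle markers, Myh1, Myh4 and Tnnt3 had at most 13 counts. Acta1, which heart muscle also expresses, had 92.97 and 227 TPM, a log2 ratio of replicate 2 over replicate 1 of 1.25. TPM corrects for transcript length and sets every library to a common total, so it can be compared between genes within a heart. The hearts stood apart in blood and fat: 5 red cell markers summed to 46562 TPM in replicate 1 and 23411 in replicate 2, and 4 adipocyte markers to 214 and 30.1.

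In both hearts, 9 of the 10 reached a TPM of 1, as did 21.3% of all genes and 49.7% of protein coding genes. The 9 ranged from Igf1r, above 66.7% of them by mean TPM, to Igfbp7, above 97.4%. Means below are ± SD over both hearts (n = 2).

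Igf1, the ligand gene (ENSMUSG00000020053.18, chromosome 10, 87858265 to 87937042), measured 8.48 TPM in replicate 1 and 8.22 in replicate 2, from 1070 and 1170 counts. The hearts were close, and their mean was 8.35 ± 0.184 TPM. Igf2, which encodes the other IGF and is an imprinted gene, stood at 49.8 and 55.9 TPM. In both hearts Igf2 was the higher ligand transcript, with a log2 ratio over Igf1 of 2.65 ± 0.15, so that Igf1 made up 14.5% and 12.8% of their summed TPM. The insulin genes Ins1 and Ins2 had counts of 0 in both hearts.

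Among receptors, Insr was the more abundant. Insr (ENSMUSG00000005534.10, chromosome 8, 3122061 to 3279617) measured 48.1 TPM in replicate 1 and 42.05 in replicate 2, above 95% of protein coding genes by its mean. Igf1r (ENSMUSG00000005533.10, chromosome 7, 67952827 to 68233668), which encodes the IGF1 receptor, stood at 4.97 and 4.56 TPM. The ranges do not overlap, and Insr exceeded Igf1r by 3.21 ± 0.05 on the log2 scale, or 9.27-fold. In the second quantification, made directly from the reads, the log2 ratio was 2.86 ± 0.04. Igf1r thus held 9.37% and 9.78% of the summed TPM of both genes in replicates 1 and 2. These are gene totals, and that of Insr includes noncoding and partial transcripts, described below. Insr-201, the only transcript with the whole Insr coding sequence, alone stood at 27.8 and 23.8 TPM. Igf1r-201, the only coding Igf1r transcript, stood at 4.3 and 3.67, so Insr was still the higher by a smaller ratio. Igf2r, which encodes the receptor that takes IGF2 into cells for breakdown, stood at 37.85 and 35.4 TPM, and exceeded Igf1r by 2.92 ± 0.02 on the log2 scale. Insrr, the orphan relative of both receptors, had only 5 and 2 counts.

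Irs1 (ENSMUSG00000055980.2, chromosome 1, 82233101 to 82291416) measured 18.6 TPM in replicate 1 and 15.85 in replicate 2. It encodes the substrate that docks PI3-kinase at the active receptors. Its level lay below the gene total of Insr, by 1.38 ± 0.03 on the log2 scale, and above that of Igf1r, by 1.83 ± 0.08. Irs2, which encodes the other widely expressed substrate, stood at 7.49 and 3.80 TPM, lower than Irs1 in both hearts (log2 ratio of Irs1 over Irs2 1.3 and 2.03). That ratio differed more between the hearts than the other 5 ratios set by role, with an SD of 0.51.

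The binding protein genes held the highest and the lowest level of the 10. Igfbp7 (ENSMUSG00000036256.13, chromosome 5, 77349240 to 77408041), whose product binds IGFs only weakly and is abundant in vessel walls, measured 87.2 TPM in replicate 1 and 89.8 in replicate 2. Igfbp5 (ENSMUSG00000026185.8, chromosome 1, 72857932 to 72874884), which binds IGFs tightly and also the extracellular matrix, followed at 54.4 and 53.45 TPM. In both genes the hearts were nearly equal, with SDs of 1.81 and 0.643. Igfbp4 (ENSMUSG00000017493.12, chromosome 11, 99041244 to 99054392), an inhibitor of IGF action that the protease PAPP-A removes, stood at 40.5 and 35.7 TPM.

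Igfbp3 (ENSMUSG00000020427.11, chromosome 11, 7206086 to 7213923), which encodes the main IGF carrier of blood, measured 21.3 TPM in replicate 1 and 15.8 in replicate 2. Igfbp6 (ENSMUSG00000023046.6, chromosome 15, 102144362 to 102149511), whose product prefers IGF2, stood at 20.5 and 15.6 TPM. Both were higher in replicate 1, and their levels lay close together in each heart. Igfbp2 (ENSMUSG00000039323.18, chromosome 1, 72824503 to 72852474) stood apart from the rest, at 0.23 and 0.05 TPM from only 9 and 2 counts. A count of 0 would allow a level of up to 3 counts. Igfbp2 was therefore barely detectable in replicate 1, and its 2 counts in replicate 2 lay below that floor. The 6 genes together summed to 224 and 210.4 TPM, which was 3.84 and 3.28 times the sum of both IGF genes, and Igfbp7 alone made up 38.9% and 42.7% of that sum.

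In 2 pairs of binding protein genes that are neighbours in the genome, 1 gene was high and the other low. Igfbp2 and Igfbp5 lie tail to tail on chromosome 1, with 5457 bases and no annotated gene between them. One was barely detected and the other was the second highest of the 10, with a log2 ratio of Igfbp5 over Igfbp2 of 7.37 and 8.48 in replicates 1 and 2 (on TPM + 0.1, which understates it). Igfbp3 lies tail to tail with Igfbp1 on chromosome 11, 3539 bases away with no gene between. Igfbp1, whose product is made mainly by liver, had a count of 0 in both hearts against 1613 and 1288 for Igfbp3. This comparison was chosen after the values were seen.

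**Figure D2:**
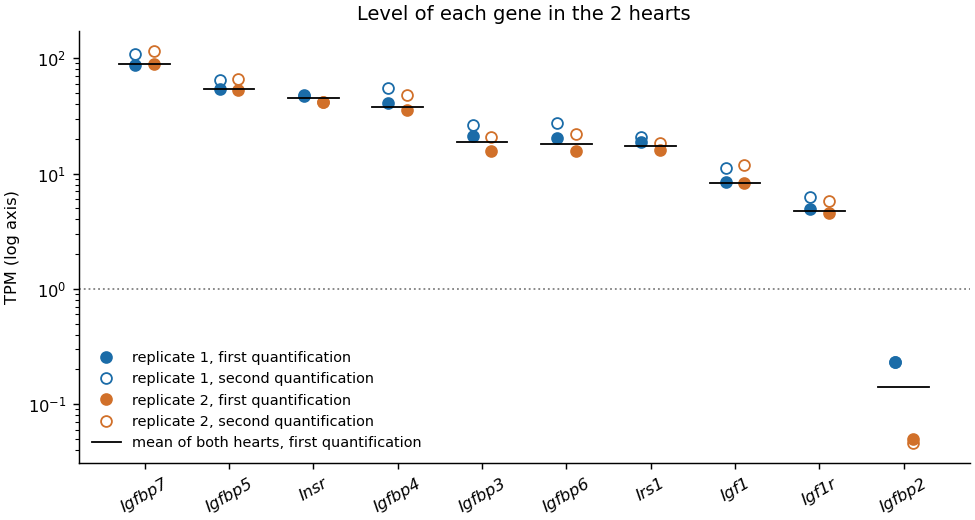
TPM on a log axis for each of the 10 genes, ordered by mean, with replicate 1 in blue, replicate 2 in orange, the first quantification filled, the second open, a bar at the mean of the first and a dotted line at 1 TPM. Of the 10 genes, 9 lie well above the line in both hearts and both quantifications, from Igfbp7 at 88.5 TPM on average to Igf1r at 4.77, and Igfbp2 lies below it.

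Levels were ordered alike in both hearts in all 6 comparisons set by role. Their mean log2 ratios were 1.38 or more in size, while the median absolute log2 ratio between hearts was 0.12 over all genes tested. Ratios that large were likely to keep their order, so the count says little about these genes. Of the 9 neighbours in the order of the means, 8 were ordered alike too, but sorting on the means of these hearts had fixed their direction. A pair was counted when its log2 ratio had 1 sign in both hearts and a mean beyond its SD. An exact sign-flip test over 2 hearts cannot give a two-sided p below 0.5, so no p is given. The order ran Igfbp7, Igfbp5, Insr, Igfbp4, Igfbp3, Igfbp6, Irs1, Igf1, Igf1r and Igfbp2. Igfbp6 and Irs1 did not differ beyond their spread (log2 ratio 0.06 ± 0.11). The step from Igfbp3 to Igfbp6 was small (0.04 ± 0.03) and was -0.08 in the second quantification. Insr lay above Igfbp4 by 0.24 ± 0.01, and below it, at -0.22, in the second quantification. The larger steps were from Igfbp4 to Igfbp3 (1.04 ± 0.17), from Irs1 to Igf1 (1.03 ± 0.13) and from Igf1r to Igfbp2. The size of the last depends on the pseudocount, with 4.45 ± 0.72 at 0.1 TPM and 2.34 at 1, since Igfbp2 is near 0. The step from Igfbp4 to Igfbp3 is between gene totals. The full-length Igfbp4-201 alone stood at 19.6 and 16.6 TPM in replicates 1 and 2, beside 21.05 and 15.65 for Igfbp3-201. These 2 transcripts showed no step of that size, but the shorter Igfbp4-204 and Igfbp4-205 are also annotated as coding. In the first quantification Igfbp4-204 stood at 10.2 and 7.91 TPM and Igfbp4-205 at 0 and 1.86. The second gave 0 to both.

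The quantifications differed in scale. Over 11819 genes at the TPM threshold, the second gave values higher by a median of 0.27 on the log2 scale. None of the 9 genes at that threshold was 1.5-fold or more apart between quantifications, against 18.6% of all such genes. Relative to the median shift, Igf1 and Igfbp6 were higher in the second by 0.19 each, and Insr was lower by 0.30. Of the 9, Insr had the largest shift relative to the median, while Insr and Igfbp4, and Igfbp3 and Igfbp6, changed places in the order.

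Insr reads were divided among 4 of its 5 annotated transcripts. Insr-201, of 9355 bases, was the only one with the whole coding sequence and it lacks the exon of 36 bases. It led in both hearts, at 27.8 and 23.8 TPM, or 57.9% and 56.6% of the gene. Insr-203 holds the exon but is a fragment of 672 bases with neither start nor stop codon, and measured 5.07 TPM in replicate 1 and 4.52 in replicate 2. The deposited bounds on these values, whose level is not given in the sources used here, were 3.42 to 6.75 and 3.14 to 5.90, so the hearts overlapped. Insr-202, a noncoding transcript of the first 3 exons, the last of them extended into the intron, stood at 14.3 and 12.7 TPM, and Insr-204, a single retained-intron block that overlaps the small exon, at 0.86 and 1.00.

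By these values, Insr-203 held 15.4% and 16.0% of the TPM of both coding transcripts in replicates 1 and 2 (15.7% ± 0.388), and 18.4% ± 0.248 in the second quantification. It held only 1.14% ± 0.0338 of their estimated counts, since the fragment is short. No annotated transcript joins the small exon to the rest of the receptor, so reads from other parts of a form B messenger RNA match Insr-201. The share is therefore a share of annotated transcripts and not a measured ratio of form B to form A. The second quantification gave Insr-201 32.8 and 29.7 TPM and Insr-202 only 5.63 and 3.94. The share of Insr-202 was 30% ± 0.318 by the first and 10.8% ± 1.83 by the second.

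Igf1 reads went mostly to Igf1-202, the transcript with leader 1, no exon of 52 bases and a long untranslated end. It had 930 of 1070 counts in replicate 1 and 996 of 1170 in replicate 2, and stood at 4.09 and 4.07 TPM. Being 7052 bases long, it held 86.0% of the counts on average but 48.9% ± 0.962 of the TPM. The rest of the TPM lay on short transcripts with few counts. Igf1-205, with leader 2 and no small exon, stood at 1.88 and 1.86 TPM from 42.9 and 45.7 counts. Igf1-203, with leader 1 and the small exon, stood at 1.42 and 2.11 TPM from 72.9 and 117 counts, and Igf1-206, with leader 2 and the small exon, at 0.99 and 0. The deposited bounds were 0.677 to 1.97 and 1.24 to 2.61 for Igf1-203. Those of Igf1-206 were 3e-05 to 2.24 and 7e-06 to 1.18, so the split of TPM among short transcripts is uncertain.

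Transcripts with the exon of 52 bases held 28.7% and 25.7% of Igf1 TPM in replicates 1 and 2 (27.2% ± 2.17). The hearts were close, but the quantifications were not, since the second gave 11.1% and 9.79% (10.4% ± 0.923). Igf1-203 had 0 and 8.88 estimated counts there. Leader 2 held 35.1% and 24.8% of Igf1 TPM (30% ± 7.27) by the first quantification. By the second it held 56.1% and 52.5% (54.3% ± 2.51). Annotated transcripts without the small exon thus held the larger share in both hearts and both quantifications, while the larger leader differed between quantifications. Only Igf1-202 is annotated with the long untranslated end. Reads from such an end of a messenger RNA with the small exon or leader 2 would therefore match Igf1-202. Both shares are shares of annotated transcripts and not measured ratios of the forms.

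**Figure D3:**
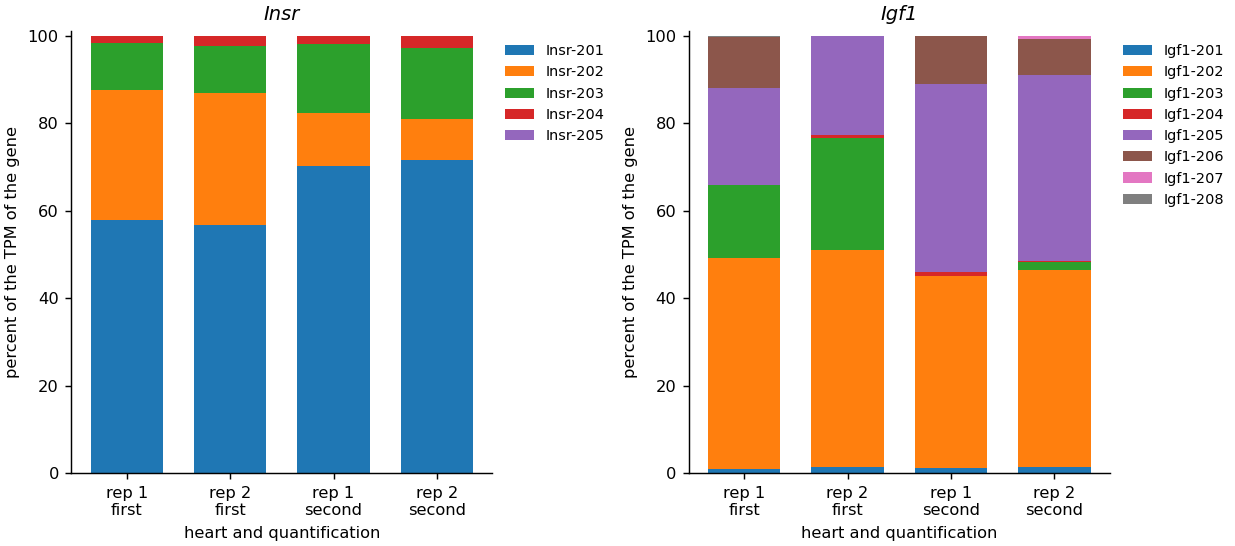
Percent of the TPM of Insr (left) and Igf1 (right) on each annotated transcript, as stacked bars for replicates 1 and 2 in the first and the second quantification. Insr-201 and Igf1-202 are the largest segments in every bar, Insr-202 shrinks from 30% to 10.8% between quantifications, and Igf1-203 goes from 21.2% to 0.847% on average while Igf1-205 goes from 22.4% to 42.8%.

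The other genes with several transcripts were led by 1 each. The leading transcript was the same in both hearts for 7 of the 7 genes with 2 or more transcripts and a TPM of 1, beside 88.2% of all such genes, and for 7 of 7 in the second quantification, beside 86.4%. It was the same across both quantifications for 6 of 7, beside 66.2%. Igfbp5-201 held 99.8% of its gene in each heart, Igfbp7-201 99.8%, Igfbp3-201 98.7% and 98.85%, and Igf1r-201 86.6% and 80.5%. Igfbp4 was the exception. The full-length Igfbp4-201 led at 48.45% and 46.7% in the first quantification, while the second put Igfbp4-202, a noncoding transcript with 0 counts in the first, at 53.9% ± 1.96 and Igfbp4-201 at 40.2% ± 1.15. The first put 26.1% of the TPM on Igfbp4-203 and 23.7% on Igfbp4-204 on average, to which the second gave 0. By estimated counts Igfbp4-201 led in both, with 83.8% in the first and 84.4% in the second. Igfbp4-202, of 799 bases, held 15.1% of the counts in the second. Irs1 and Igfbp6 have 1 annotated transcript.

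The hearts were then compared gene by gene, as replicate 2 over replicate 1 on counts scaled by TMM, a factor that aligns the bulk of genes. There is 1 library per animal, so the ratios have no replicate check, and their 95% exact binomial intervals cover counting error only. Of 9 genes at a mean CPM (counts scaled to a common total) of 1 or more, 0 were 1.5-fold or more apart, beside 4.52% of 12908 genes tested, and 0 were 2-fold apart, beside 1.20%. Igfbp2 did not pass that filter, and its ratio was -2.31 on the log2 scale with an interval of -5.56 to -0.04.

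Igfbp3 differed most, at a log2 ratio of -0.46 (interval -0.57 to -0.36), or 1.38-fold lower in replicate 2. Igfbp6 followed at -0.43 (-0.59 to -0.26). Then came Irs1 (-0.27), Igfbp4 (-0.27), Insr (-0.25) and Igf1r (-0.24), with intervals below 0 in each. Igfbp5 stood at -0.06 (-0.10 to -0.02). The intervals of Igf1 (-0.01, from -0.13 to 0.11) and Igfbp7 (0.01, from -0.07 to 0.08) crossed 0. Over all genes tested, the median absolute log2 ratio between hearts was 0.12, and the share with an interval off 0 is not given.

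In all, 8 of 9 were lower in replicate 2 by some amount, beside 47.8% of all genes tested, and their median was -0.25 beside 0.01 for all genes. The sign of Igf1 and Igfbp7 depends on the scaling, with 7 of 9 lower by total counts (36.5% of all genes were) and 9 of 9 by spike-ins (78.3% of all genes were). The latter put the median over the genes tested at -0.13. Igfbp3 then stood at -0.61, past 1.5-fold. Markers of several cell types lay to 1 side of 0. The 3 adipocyte markers tested ranged from -3.02 to -1.96 and the 5 red cell markers from -1.08 to -0.91. Ratios were smaller for the 5 fibroblast markers, from -0.26 to -0.11, with the interval of Tcf21 across 0. The 4 endothelial markers ranged from 0.07 to 0.36. Several of these smaller ratios were near the median absolute log2 ratio of 0.12 over all genes tested. Markers of other types lay on both sides of 0, from -0.15 to 0.35 in heart muscle, from -0.18 to 0.46 in pericytes and smooth muscle, and from -0.71 (Adgre1) to 0.16 in macrophages. Their part in the ratios of the 10 genes was not tested, and in whole tissue fewer cells of a type cannot be told apart from less RNA per cell.

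**Figure D4:**
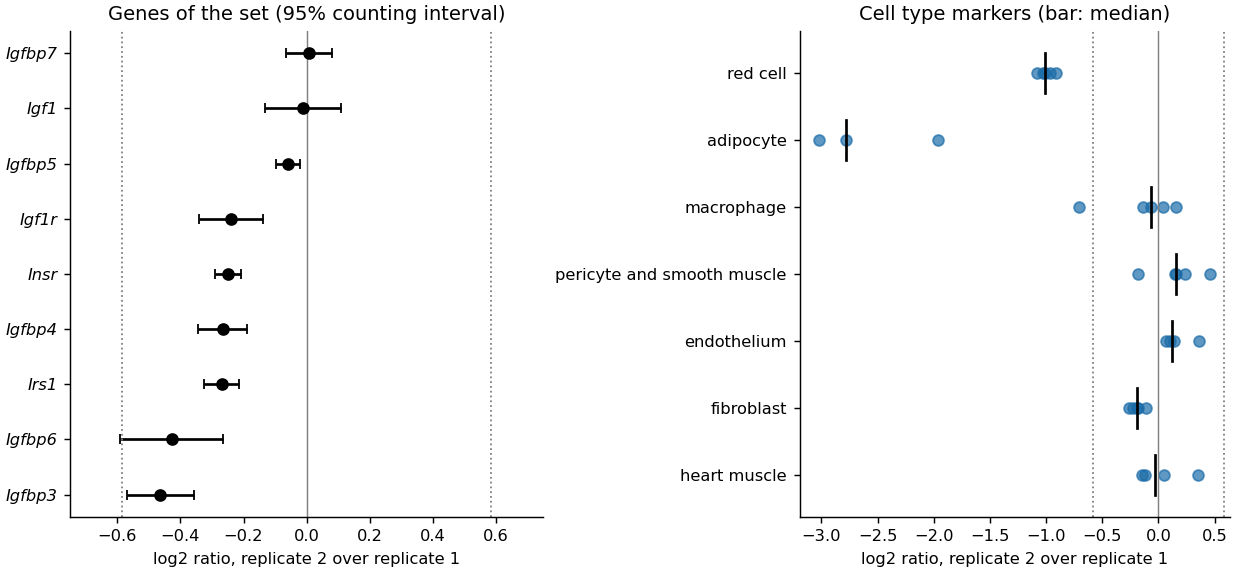
Log2 ratio of replicate 2 over replicate 1 for the 9 genes tested (left, points with 95% counting intervals) and for single marker genes of 7 cell types (right, bar at the median), with dotted lines at 1.5-fold in either direction. All 9 points lie inside the dotted lines, from Igfbp3 at -0.46 to Igfbp7 at 0.01, while the adipocyte and red cell markers and the macrophage gene Adgre1 lie beyond the left line.

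A list of 53 other genes of the pathway, chosen with earlier results of these data known, put these levels in context. Of them, 43 reached a TPM of 1 in both hearts (81.1%, beside the 49.7% of protein coding genes). Of 6 ligand and carrier genes, 2 reached it, Igf2 and Igfals. Igfals, whose product stabilises the blood complex with IGFBP3, stood at 3.58 and 2.47 TPM. Among adaptors and brakes, 9 of 11 reached the threshold, led by Grb14, which encodes an inhibitor bound to the active insulin receptor (67.2 ± 7.25 TPM), and Grb2, the link to the Ras pathway (36.7 ± 2.79, though 30.3 in the second quantification, below Grb10 at 42.4), with Irs4 lowest at 1 and 0 counts. All 10 PI3-kinase and AKT genes reached it, from Pik3cb, a catalytic subunit (3.32 ± 0.0354), to the kinase genes Akt2 (60.6 ± 1.75) and Akt1 (73.5 ± 4.65).

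All 14 target genes did so too. The insulin-responsive glucose transporter gene Slc2a4 was highest (113 ± 4.19), followed by the translation repressor gene Eif4ebp1 (40.9 ± 5.37), and the transcription factor gene Foxo1 was lowest (4.43 ± 0.417), although Rictor, at 4.84, lay below Foxo1, at 4.95, in the second quantification. On the growth hormone side, whose best known target is Igf1, all 4 genes reached it, with the receptor gene Ghr at 58.4 ± 3.94, Stat5b at 24.4 ± 0.389 and Jak2 at 6.03 ± 0.113. Of 6 genes for proteases that cut binding proteins and for inhibitors of those proteases, 3 did, with Htra3 at 44.8 ± 4.41 and Htra1 at 41.4 ± 3.19. Pappa, which encodes the protease PAPP-A that cuts IGFBP4, stood at only 0.21 and 0.13 TPM, and its relative Pappa2 at 0.20 and 0.14.

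Between the hearts, 2 of the 45 listed genes tested were 1.5-fold or more higher in replicate 1 (2.97% of all genes were) and 0 were so in replicate 2 (1.56% of all genes). They were Irs2, with 1525 and 832 counts and a log2 ratio of -1.01 (interval -1.14 to -0.89), and Pappa, with 76 and 49 counts (-0.77, interval -1.32 to -0.24). Irs2 alone was 2-fold apart (0.906% of all genes were so higher in replicate 1, and 0.294% in replicate 2). The median of the list was -0.05, beside -0.25 for the 9 genes above. Just short of the threshold was Foxo3 (-0.58), followed by Pik3r1, a regulatory subunit gene of PI3-kinase (-0.47), both named here after their values were seen.

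**Figure D5:**
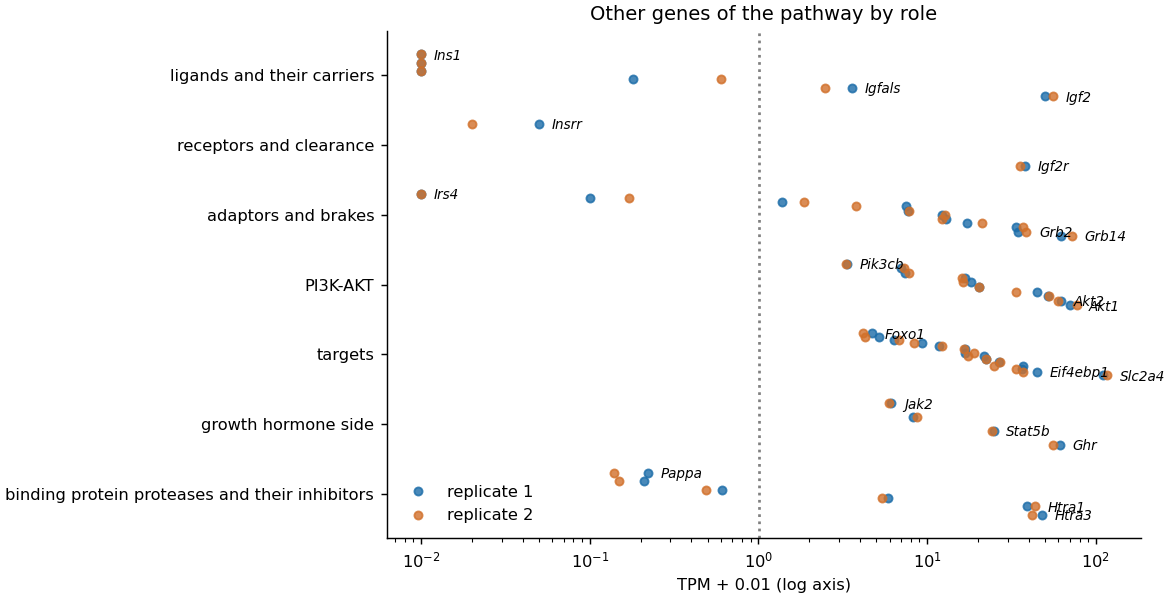
TPM + 0.01 on a log axis for the 53 other pathway genes in 7 roles, with replicate 1 in blue, replicate 2 in orange, a dotted line at 1 TPM and the highest 2 and lowest gene of each role named. All PI3-kinase and AKT, target and growth hormone genes lie right of the line in both hearts, and 3 genes of the ligand role are at 0.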

How the data were processed

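Gene tables with estimated counts and TPM (maximum likelihood and posterior mean) were deposited by the authors for each heart, derived from a transcriptome alignment, per the text files deposited with them. Those files name the mm10 assembly and GENCODE M21. A first transcript table deposited by the authors gives estimated counts, TPM and the percent of each gene on a transcript. A second, deposited by the authors and derived from the reads, gives estimated counts and TPM. The sources used here do not name the tools, their versions or the strand setting. The only measured gene that overlaps one of the 10 genes with more than 3 counts is Polr2b, which shares 85 bases with Igfbp7 on the opposite strand.

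Symbols came from the second table's identifiers. Counts were rounded, and spike-ins and 26248 transfer RNA rows, with 3.0 and 1.85 counts, were left out. Ratios between hearts used TMM (edgeR 4.0.16, R 4.3.3), a mean CPM of 1 and exact binomial 95% intervals, which cover counting error only, as does the floor of 3 counts (0.0784 and 0.0738 CPM). The ratios between hearts and their intervals were tested on simulated counts that held counting error only. Forms, transcript shares and level ratios were not tested in this way. Level ratios used a pseudocount of 0.1 TPM. Forms were read from exon structure. The planned share over full coding Insr transcripts was taken over both coding transcripts, since only 1 is full, and leaders by the exon joined to the first shared coding exon. Sequences are those of GENCODE M21 transcripts. Other tools were scipy 1.17.1, pandas 2.3.3, numpy 2.4.6 and matplotlib 3.10.9, under Python 3.11.15.

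All 10 genes were named. Of the list of other pathway genes, the 2 highest and the lowest per role and those 1.5-fold apart were named, unless said otherwise. The genes and lists were chosen with earlier results of these data known. DESeq2 1.42.0 size factors were an alternative.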

Additional observations from a re-analysis of the deposited data

How the results depend on the processing

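No paired analysis was possible because there is 1 group of 2 hearts. The counts of genes at the TPM threshold (9 of 10, and 43 of 53 on the list), of ordered level pairs and of leading transcripts stayed within 1.5 times under each alternative tried, with 8 and 37 genes at a TPM of 5 and 15 ordered pairs in the second quantification. Genes past 1.5-fold between hearts numbered 0, but 1 by spike-in scaling (Igfbp3) and 1 with no filter on low counts (Igfbp2). Levels of Insr over Igfbp4 and of Igfbp3 over Igfbp6 reversed in the second quantification, to log2 ratios of -0.22 and -0.077, and the cause was not tested. The share of Insr on the transcript with the small exon was 18.4% in the second quantification, 1.14% by estimated counts and 10.6% over all Insr transcripts, and it lay between 15.4% and 16.0% with 1 heart left out. The Igf1 share with the small exon was 10.4% in the second quantification, 33.1% by posterior mean TPM and 9.26% by counts, with 25.7% to 28.7% for single hearts, and 28.4% with Igf1-201 added, an alternative chosen after seeing the data. The share of Igf1 leader 2 was 54.3% in the second quantification and 5.58% by counts, with 24.8% to 35.1% for single hearts. All Igf1 transcripts are coding, so widening their denominator changed nothing. A ratio between hearts has no value with 1 heart left out. Counts lower the shares by construction, since they weight transcripts by length.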
